A study of Mus musculus with 4 samples.

Results

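Cxcl1, Cxcl2 and Cxcl3, the mouse CXC chemokines that attract neutrophils, their receptor gene Cxcr2, and Ptgs2, which encodes the inducible prostaglandin synthase COX-2, were described in CD45+ immune cells of MC38 tumours. The 5 genes were chosen by symbol, with earlier results on these libraries known, and all 5 were among the 31253 features of the count matrices. Their levels across cell types are therefore given as a description and carry no test. MC38 is a mouse colon carcinoma line, of which 100000 cells were injected under the skin of untreated mice 8 weeks old, and tumours were taken at day 16. There were 2 libraries from WT mice and 2 from Ufl1 cKO mice (conditional knockout). UFL1 is an E3 ligase that conjugates UFM1, a small relative of ubiquitin, to target proteins, and the series' title places its ablation in T cells. The deleting Cre driver, the deleted exons, the mouse strain and the number of animals behind each library are not given in the sources used here. Single-cell suspensions were digested with collagenase, frozen and thawed before 3' droplet sequencing.

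CXC chemokines with an ELR motif bind CXCR2 and draw neutrophils out of blood into inflamed tissue. Activated monocytes and macrophages transcribe Cxcl1, Cxcl2 and Cxcl3 quickly and briefly after signals that act through NF-kB. COX-2 makes the precursor of prostaglandin E2 and is induced by many of the same signals. Tumour-infiltrating myeloid cells are a known source of both.

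The upstream sequences are shown because each ligand was detected in a larger share of monocytes that had another ligand than of those that lacked it. For Cxcl3 this rests on libraries pooled. Each is the 130 bases before the gene's RefSeq start on GRCm38.p6, read 5′ to 3′ on the + strand, with the runs shared by the 3 ligand genes, and in Ptgs2 a C/EBP-like match, in capitals. The windows are chr5:90891115-90891244 for Cxcl1, chr5:90903769-90903898 for Cxcl2, chr5:90785971-90786100 for Cxcl3, chr1:74153864-74153993 for Cxcr2 and chr1:150099901-150100030 for Ptgs2.
Cxcl1: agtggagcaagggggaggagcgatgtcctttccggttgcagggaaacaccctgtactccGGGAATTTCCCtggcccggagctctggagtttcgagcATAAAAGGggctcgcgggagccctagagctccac
Cxcl2: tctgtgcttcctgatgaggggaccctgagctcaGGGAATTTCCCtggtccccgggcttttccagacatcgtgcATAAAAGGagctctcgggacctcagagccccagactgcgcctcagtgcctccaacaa
Cxcl3: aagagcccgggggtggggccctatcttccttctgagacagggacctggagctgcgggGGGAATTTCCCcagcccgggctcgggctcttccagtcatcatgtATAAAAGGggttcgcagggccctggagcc
Cxcr2: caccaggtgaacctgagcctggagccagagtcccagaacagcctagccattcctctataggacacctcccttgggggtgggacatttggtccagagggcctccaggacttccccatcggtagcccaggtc
Ptgs2: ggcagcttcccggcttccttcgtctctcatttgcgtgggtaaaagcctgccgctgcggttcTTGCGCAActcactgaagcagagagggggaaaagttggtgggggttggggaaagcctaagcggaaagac

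Runs of at least 7 bases found in the 250 bases upstream of all 3 ligand genes were extracted, and there were 2. The first, GGGAATTTCCC, holds a kappaB element, the kind of site that NF-kB binds, and lay 71 to 61 bases before the start of Cxcl1, 97 to 87 before Cxcl2 and 73 to 63 before Cxcl3. Searched on both strands, it was in 14 of the 32851 RefSeq upstream windows of the same length, or 0.0426%. The second, ATAAAAGG, resembles a TATA box, lay at 34 to 27 bases in Cxcl1, 57 to 50 in Cxcl2 and 29 to 22 in Cxcl3, and was in 1.54% of windows. Distances are from the RefSeq start, which for Cxcl2 is base 90903899. In the GENCODE annotation Cxcl2 begins earlier, at 90903871, so the last bases printed for it lie inside that gene. The larger distances of both runs in Cxcl2 thus depend on the start used. Neither run was in the windows of Cxcr2 and Ptgs2. Both strands were also searched for a C/EBP-like motif, TTGCGNAA, and a CRE-like motif, ACGTCA, which do not overlap these runs. TTGCGNAA was matched in Ptgs2 at 69 to 62 bases on both strands, as TTGCGCAA, and in 0.670% of windows. ACGTCA was matched in Cxcl1 at 195 to 190 bases, outside the printed stretch, and in 6.47% of windows. These are letter matches and not measured binding.

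The 3 ligand genes lie on the + strand of chromosome 5, Cxcl3 (ENSMUSG00000029379) at 90786103 to 90789600, Cxcl1 (ENSMUSG00000029380) at 90891241 to 90893115 and Cxcl2 (ENSMUSG00000058427) at 90903871 to 90905938, in the GENCODE annotation of GRCm38. Cxcr2 (ENSMUSG00000026180) is at 74153989 to 74161246 and Ptgs2 (ENSMUSG00000032487) at 150100031 to 150108227 of chromosome 1, both on the + strand. The genome build behind the counts is not given in the sources used here. All 5 gene identifiers matched this annotation. Cxcl2 and Cxcl3 transcripts shared 61 stretches of 50 bases, 3.28% of those of Cxcl2 and 6.31% of those of Cxcl3, so reads from these stretches match both genes. The stretches were counted over whole transcripts, so these percents are not shares of 3' reads. The part of such reads in the counts was not tested. Cxcl1 shared none with Cxcl2 or Cxcl3.

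After filtering, 30860 cells were used, between 6991 and 9059 per library, with 59771237 to 72442415 unique molecular identifiers (UMIs, counted molecules) per library and a median of 7159 to 8148.5 per cell. Cells were assigned to 13 gates by counting how many genes of each cell type's marker panel they expressed. Neutrophils expressed a mean of 6.73 of 10 neutrophil markers, monocytes 5.16 of 7 monocyte markers and macrophages 5.91 of 8 macrophage markers. Ptprc, which encodes CD45, was detected in 81.1% to 87.7% of cells, and the summed level of 5 fibroblast markers was 0.251 to 0.647 CPM (counts scaled to 1000000 UMIs). Ufl1 was at 16.3 and 16.1 CPM in WT and 17.1 and 19.0 CPM in cKO libraries, and was no lower in the T cell gate of the cKO libraries (15.5 and 19.6 CPM against 16.0 and 16.9 CPM). A 3' tag can lie outside a deleted part, so this level does not check the labels. The cKO library 2 stood apart in sex-linked genes, with 20290 Xist UMIs against 8 to 58 elsewhere and 11 Ddx3y UMIs against 2977 to 3711. This is the pattern of female cells in cKO library 2 and of male cells in the others, so sex differed within cKO and between the groups. WT library 1 and cKO library 2 shared 479 cell barcodes, against 85 to 104 for the other pairs. The 479 had a median of 17417 UMIs in WT library 1 and 760 in cKO library 2. Medians were closer in each other pair, as with 8231 and 8072 for the WT libraries. The cause was not tested. CPM in each gate was recomputed without all 902 shared barcodes, and every level of a member moved by less than the spread between libraries.

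Below, CPM is the sum of a gene's UMIs over a gate in 1 library per 1000000 UMIs of that gate. Values are given for WT libraries 1 and 2 and then cKO libraries 1 and 2. In droplet data free RNA adds UMIs to cells that do not transcribe a gene, so shares of cells are read against those in lymphocytes.

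Cxcl2 was the ligand found in many cells, with 208502 UMIs in 7114 cells. Its highest level was in the neutrophil gate, at 31838 and 21010.3 CPM in WT and 20459 and 18745 CPM in cKO libraries. The gate held 7, 30, 14 and 20 cells, 71 in all, and 62 of them (87.3%) had Cxcl2 UMIs. The neutrophil levels exceeded those of every other gate in each library.

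The gate of mast cells and basophils came next, at 4041, 1312, 6090.4 and 2745 CPM of Cxcl2 in 121 cells. Monocytes had 2065, 868, 1406 and 1439 CPM. Monocyte-macrophage intermediates, cells with markers of both, had 2035, 966, 1268 and 1712 CPM. Within each library mast cells and basophils were above both of the other gates, although the ranges of the 3 gates over libraries overlapped. The order of monocytes and intermediates differed between libraries.

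Macrophages had 1223, 607, 577 and 865 CPM of Cxcl2, below monocytes and intermediates in each of the 4 libraries. Non-classical monocytes, which patrol the vessel wall, ranged from 494 to 1723 CPM and overlapped macrophages. Type 2 conventional dendritic cells (cDC2) had 329, 165, 240.0 and 249 CPM, below the monocyte and macrophage gates in every library. The other dendritic gates ranged from 21.4 to 588 CPM.

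T cells had 161, 78.5, 123 and 177 CPM of Cxcl2, NK cells 20.1 to 62.0 CPM and B cells 4.01 to 101 CPM. In the T cell gate 75 of 4690 cells had 10 or more Cxcl2 UMIs, and they held 91.1% of the gate's Cxcl2 UMIs. Those 75 cells had a median of 16567 UMIs in all, against 6496 in T-gated cells without Cxcl2. Of the 75, 66 (88%) had UMIs of at least 3 monocyte markers, against 18.7% of T-gated cells without Cxcl2. Several of those markers, such as Ly6c2 and Plac8, are also transcribed by T cells. The part of cell doublets in these lymphocyte values was not tested.

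Every cell was then thinned to 2000 UMIs, and shallower cells, among them part of the neutrophils, were left out. Cxcl2 was detected in 81.8% of neutrophils, 40.7% of mast cells and basophils, 3.61% of T cells, 2.52% of B cells and 2.11% of NK cells, all 4 libraries pooled. Before thinning the shares were 87.3%, 39.7%, 6.97%, 4.00% and 4.55%. In monocytes the thinned share was 43.3%, 30.0%, 34.1% and 37.6%, and in macrophages 13.6%, 8.76%, 8.41% and 8.56%. The monocyte shares lay far above the lymphocyte shares in each library.

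**Figure D1:**
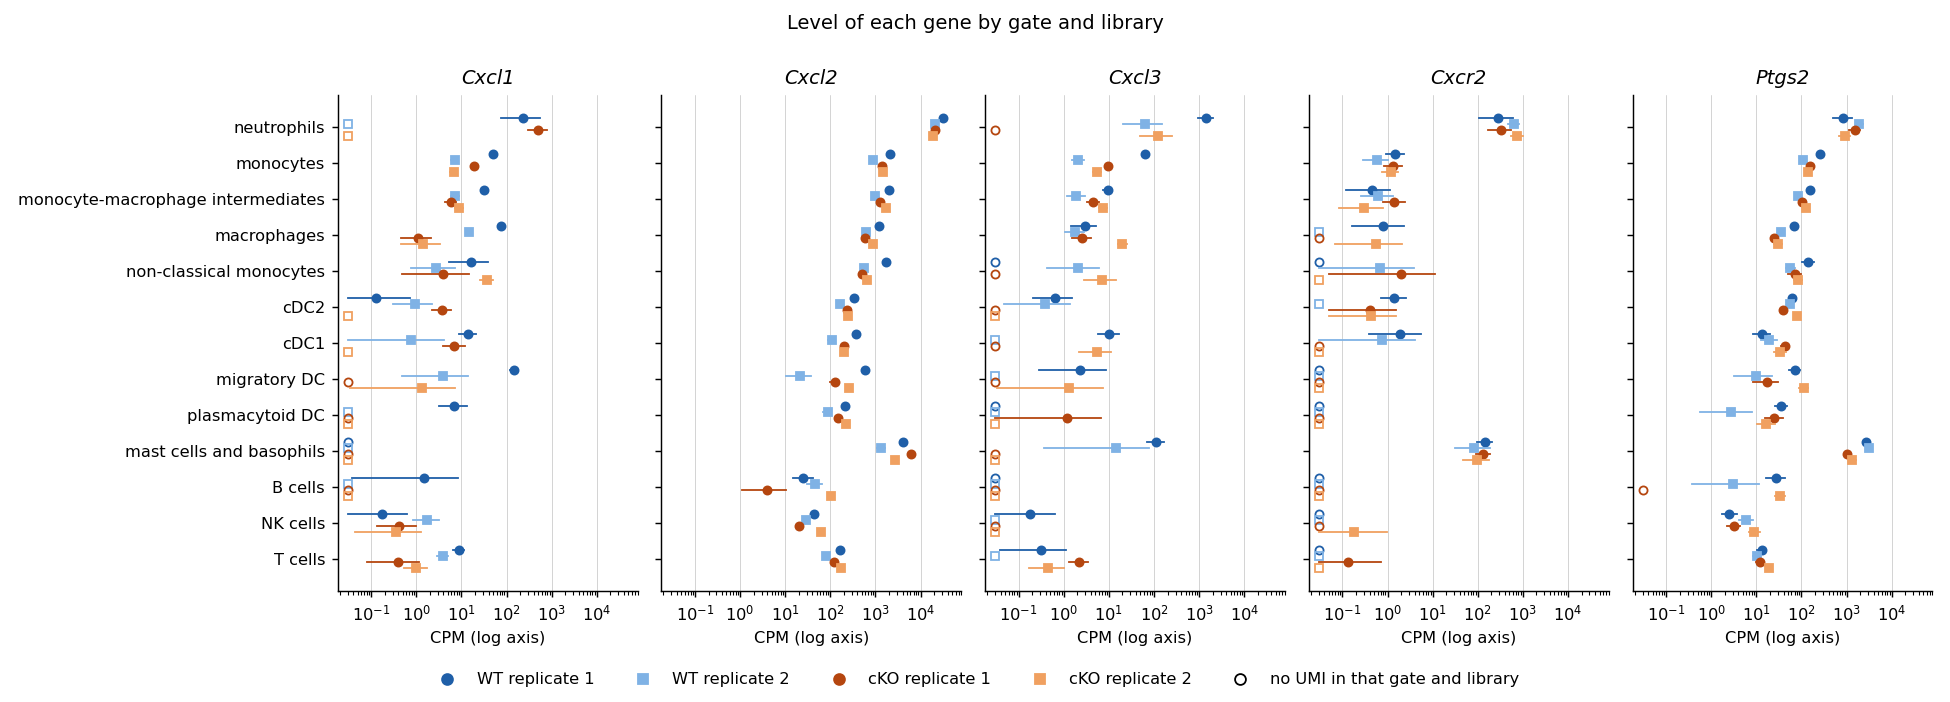
CPM (log axis) of each member by gate in the 4 libraries, with 95% Poisson intervals for counting error only; open symbols at the left edge mark a library without a UMI. Cxcl2 is highest in neutrophils (18745 to 31838 CPM), Ptgs2 in mast cells and basophils in 3 libraries and in neutrophils in cKO library 1, and Cxcl1 and Cxcl3 spread over orders of magnitude between libraries within a gate.

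Cxcl1, a close relative of Cxcl2, was sparse, with 2719 UMIs in 295 cells. Over all cells it was at 25.8 CPM in WT library 1 and at 6.17, 6.55 and 4.54 CPM in the other 3 libraries. Monocytes had 50.2, 7.15, 19.4 and 6.70 CPM from 118 positive cells of 7280. Intermediates had 30.8, 7.26, 5.77 and 8.85 CPM. WT library 1 was the highest of the 4 in both gates.

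A few cells carried most of the Cxcl1 signal. Of the 295 positive cells 26 held 50% of the UMIs, and 1 macrophage of WT library 1 alone had 175 UMIs. The 75 cells with 10 or more UMIs held 74.7% of the total, and 33 of them were monocytes, 19 intermediates and 9 macrophages. In neutrophils Cxcl1 rested on 3 cells of 71 and was absent from 2 of the 4 libraries. In mast cells and basophils no Cxcl1 UMI was counted, and the limits that 0 UMIs allow were 14.5, 42.3, 12.8 and 29.0 CPM. Migratory dendritic cells had 146 CPM in WT library 1 and at most 3.89 CPM in the other libraries.

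Cxcl3 was as sparse, with 1743 UMIs in 295 cells. In monocytes it was at 64.1 CPM in WT library 1 and at 2.10, 9.66 and 5.47 CPM in the others, a range of 30.5 times. A single cell held 276 of the 1743 UMIs (15.8%), and 17 cells held 50%. In neutrophils Cxcl3 was at 1417, 64.0, 0 and 124 CPM, and the 30 UMIs of WT library 1 came from 1 cell. In macrophages it was at 2.96, 1.76, 2.56 and 19.9 CPM, and 69 of the 70 UMIs of cKO library 2 came from 1 cell. These levels describe single cells more than gates.

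Cxcr2, the receptor for all 3 ligands, had 341 UMIs in 190 cells, and 119 of those cells had a single UMI. In neutrophils it was at 283, 627, 319.7 and 743 CPM, and 41 of 71 cells (57.7%) had a UMI. Mast cells and basophils followed at 145, 84.6, 132 and 96.6 CPM, with UMIs in 49 of 121 cells (40.5%). The lowest neutrophil level was above the highest level of that gate. Monocytes had a mean of 1.15 CPM ± 0.404 (SD, n = 4), intermediates 0.699 CPM ± 0.497 and macrophages 0.344 CPM ± 0.409. T, NK and B cells had 2 Cxcr2-positive cells between them, which sets the background. After thinning, Cxcr2 was detected in 61.4% of neutrophils, 23.9% of mast cells and basophils and 0.27% of monocytes.

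Ptgs2 ranked differently from Cxcl2. Its mean was highest in mast cells and basophils, at 2691, 3131, 1046 and 1343 CPM, where 82 of 121 cells (67.8%) had UMIs. Neutrophils had 850.3, 1919, 1518 and 902 CPM, with UMIs in 44 of 71 cells (62.0%). The ranges of these 2 gates overlapped, neutrophils were the higher in cKO library 1, and each library of both lay above every other gate.

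Monocytes had 251, 110.4, 157 and 138 CPM of Ptgs2 and intermediates 158, 84.6, 102 and 126 CPM. Monocytes were above intermediates in all 4 libraries. Macrophages had 66.6, 35.5, 24.1 and 30.4 CPM, below intermediates in all 4. The cDC2 gate had 60.6, 54.8, 39.8 and 79.0 CPM and overlapped macrophages. NK cells (2.53 to 9.01 CPM) and T cells (10.1 to 19.2 CPM) were lower.

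The gate of mast cells and basophils was examined further, by cells chosen after its values were seen. Mcpt8, a basophil protease gene, was detected in 73 of the 121 cells. Of the mast cell genes, Mcpt1 and Mcpt2 were each detected in 1 cell, which held 1322 and 516 UMIs of them, and Kit in 2 cells. No UMI of Mcpt1, Mcpt2 or Kit was counted in the 48 cells without Mcpt8. Cd200r3, taken here as a basophil gene and also a marker of the gate, was detected in 61 of the 73 cells with Mcpt8. It was also detected in 34 of the 48 cells without. Cpa3, a protease gene of mast cells that basophils can also express and a marker of the gate, was detected in 42 of the 73 cells with Mcpt8 and 26 of the 48 cells without. Ptgs2 was at 1889 CPM in cells with Mcpt8 and 1884 CPM in cells without, and Cxcl2 at 3994 and 4822 CPM, libraries pooled.

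The ratio of Ptgs2 to Cxcl2 UMIs, compared between gates for this pair of genes, separated monocytes, intermediates and macrophages but not all gates. Per 100 Cxcl2 UMIs, monocytes had 12.2, 12.7, 11.2 and 9.61 Ptgs2 UMIs. Intermediates had 7.78, 8.77, 8.06 and 7.35. Macrophages had 5.45, 5.85, 4.19 and 3.52. The 3 gates did not overlap, and the ratio was lower in macrophages than in intermediates, and in intermediates than in monocytes, in each library. In mast cells and basophils it ranged from 17.2 to 239, and in cDC2 from 16.6 to 33.2. Neutrophils had 2.67, 9.14, 7.42 and 4.81, which overlapped intermediates and macrophages. Non-classical monocytes, at 8.13, 9.99, 14.6 and 12.6, and T cells, at 8.07, 12.8, 9.80 and 10.8, overlapped monocytes.

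A gate's level and its number of cells set how much of a transcript it supplied. Monocytes, with 23.4% to 30.5% of each library's UMIs, held 47.4%, 41.7%, 47.4% and 47.7% of the Cxcl2 UMIs. Intermediates held 30.0%, 27.2%, 28.5% and 35.1% of them. Neutrophils held 1.10%, 4.14%, 1.75% and 1.66%, although they were among the smallest gates. So most counted Cxcl2 came from monocytes and intermediates, in each library.

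The Ptgs2 UMIs came from monocytes for 46.7% to 53.2%, from intermediates for 21.0% to 27.4% and from mast cells and basophils for 2.31% to 8.31%. For Cxcl1 the monocyte share was 45.6%, 30.4%, 69.2% and 44.9%. The macrophage share of Cxcl1 was 18.3% and 34.2% in the WT libraries and 1.93% and 1.58% in the cKO libraries. Cxcr2 came from neutrophils for 7.50%, 62.8%, 13.5% and 44.7%, and from mast cells and basophils for 37.5%, 7.69%, 34.8% and 10.6%. The libraries with more neutrophils had the larger neutrophil share of Cxcr2.

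**Figure D2:**
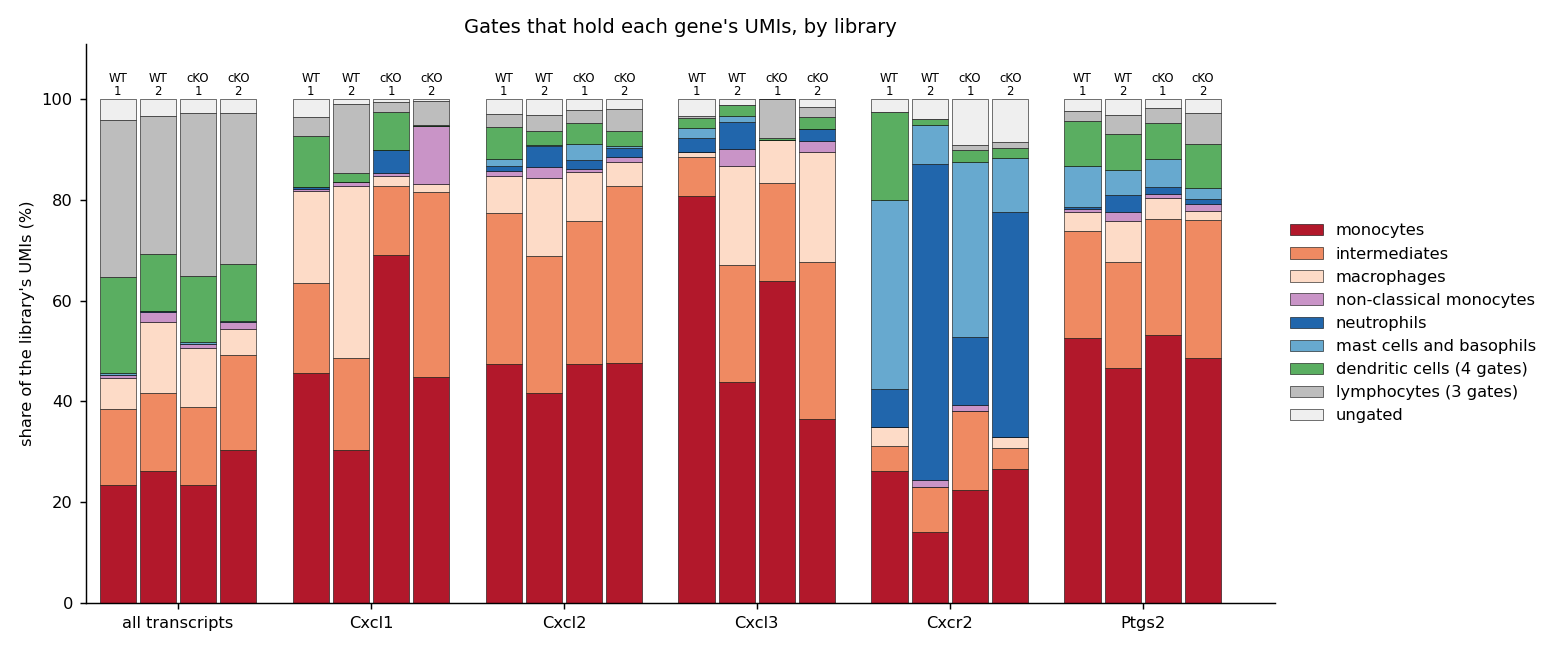
Stacked bars of the percent of each library's UMIs contributed by each group of gates, for all transcripts and for each member. Monocytes supply 41.7% to 47.7% of Cxcl2 UMIs in the 4 libraries, and the main source of Cxcr2 changes between neutrophils and mast cells and basophils.

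Within monocytes the members differed with known states. Monocytes with Arg1, which encodes arginase 1, had 3217, 2383, 2460 and 3722 CPM of Cxcl2, against 1994, 839, 1347 and 1363 CPM in those without. Ptgs2 was at 345.5, 238, 279 and 379.5 CPM in Arg1-positive monocytes and at 245, 107, 149 and 129.7 CPM in the others. Both genes were higher in the Arg1-positive cells of all 4 libraries, from 30 to 88 cells a library. Interferon-induced monocytes had 1880, 855, 1298 and 1434 CPM of Cxcl2 and the other monocytes 2142, 869, 1481 and 1448 CPM, a smaller gap. Cxcl1 was at 22.2, 4.15, 1.18 and 5.02 CPM in interferon-induced monocytes and 61.2, 8.97, 31.7 and 8.93 CPM in the others. Its CPM was lower in the interferon-induced cells of all 4 libraries. The share of cells with Cxcl1 after thinning was 1.73%, 1.03%, 0.345% and 0.593% in interferon-induced monocytes. In the others it was 2.23%, 0.954%, 1.41% and 0.583%, so the share was not lower in WT library 2 and cKO library 2.

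Macrophages with Cx3cr1, a fractalkine receptor gene, had 1831, 696, 975 and 1007 CPM of Cxcl2, against 1034, 581, 488 and 848.5 CPM in those without. For Mmp12, a macrophage elastase gene, the direction was not shared: Cxcl2 CPM was higher in Mmp12-positive macrophages of 3 libraries and lower in cKO library 2 (373 against 978 CPM). The thinned share of cells with Cxcl2 was 11.6%, 11.4%, 7.62% and 3.53% with Mmp12 and 14.1%, 8.44%, 8.58% and 9.45% without. By share, Cxcl2 was thus higher with Mmp12 only in WT library 2.

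In monocytes each ligand and Ptgs2 was detected in a larger share of the cells that had another of these genes than of the cells that lacked it. For Cxcl3 the values given are pooled over libraries. In monocytes thinned to 2000 UMIs, Cxcl2 was found in 93.8%, 76.2%, 93.3% and 100% of the 32, 21, 15 and 11 cells with Cxcl1. In monocytes without Cxcl1 it was found in 42.2%, 29.6%, 33.5% and 37.2%. In each library most Cxcl1-positive monocytes were thus Cxcl2-positive.

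In monocytes with Cxcl3, 80.6% of 72 cells had Cxcl2, against 35.3% of those without, libraries pooled. Cxcl3 was in 13.9% of monocytes with Cxcl1 and 0.877% of those without, also pooled. In Arg1-negative monocytes, the thinned Cxcl3 share was 2.71% in WT library 1 and 0.379%, 0.915% and 0.384% in the others. WT library 1 also had the highest Cxcl1 and Cxcl2 shares in those cells. The pooled Cxcl3 values thus mix differences between libraries with co-detection. In monocytes with Ptgs2, Cxcl2 was in 61.2%, 46.2%, 55.8% and 59.6%, against 38.1%, 27.6%, 29.4% and 33.9% in those without. All 4 libraries had the same direction. The receptor did not follow: 36.8% of the 19 monocytes with Cxcr2 had Cxcl2, against 35.8% of the rest.

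In macrophages all 21 cells with Cxcl1 after thinning also had Cxcl2, against 8.86% of macrophages without Cxcl1. These 21 cells came from the WT libraries, 6 from the first and 15 from the second. Macrophages with Ptgs2 had Cxcl2 in 35.3%, 43.3%, 31.4% and 25%, against 12.3%, 7.42%, 7.71% and 8.07%. In mast cells and basophils the shares lay closer together, and Cxcl2 was in 42.0% of 69 cells with Ptgs2 and 38.6% of 44 cells without. Neutrophils had Cxcl2 in 88.9% of 27 cells with Cxcr2 and 70.6% of 17 cells without. Cells of 1 library share their source, so these shares are a description without a test.

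Monocytes with Cxcl2 were then compared with monocytes without it, at equal depth, for the fixed gene lists. All 20 NF-kB-induced inflammatory genes were detected in a larger share of the Cxcl2-positive cells in 4 of 4 libraries, with a median difference of 9.26 percentage points. Among all 8112 genes found in at least 1% of monocytes, 8.06% were higher in 4 of 4 libraries and the median difference was -0.238 points. Mean monocyte levels of the listed genes ran from 12.1 CPM (Il6) to 3460 CPM (Cebpb). No list was matched in level to the 8112 genes, so the part of level in these contrasts was not tested. Cd14, the lipopolysaccharide co-receptor, was in 75.6% of Cxcl2-positive and 50% of Cxcl2-negative monocytes. Il1b, an inflammatory cytokine gene, was in 85.3% and 69.8%. Zfp36, which encodes an RNA-decay factor, was in 94.4% and 88.3%. Cebpb, a transcription factor gene, was in 98.2% and 94.1%, and Ccl4, a chemokine gene, in 46.2% and 38.4%. The gene with the widest gap in that list, named after its values were seen, was Cd14.

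Of 12 immediate early and dissociation genes, 9 were higher in 4 of 4 libraries, with a median difference of 6.49 points. Junb was in 93.6% and 85.8% of Cxcl2-positive and Cxcl2-negative monocytes, Fos in 85% and 76.7%, Hspa1a in 87.9% and 80.5% and Hspa1b in 85.7% and 77.7%. These genes also rise when tissue is digested, and the part of digestion in the Cxcl2 level was not tested. Of 9 hypoxia genes on the matrices, 7 were higher in 4 of 4 libraries, with a median of 3.30 points, among them Ldha, a glycolytic enzyme gene (74.6% and 71.7%). Cxcl2-positive cells were thus also richer in stress genes.

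The prostanoid list did not show this pattern, but several of its genes were low in monocytes. Ptger3, Slco2a1, Ptges and Ptger1 had mean monocyte levels of 0, 0.0456, 1.20 and 1.52 CPM, against 1574 CPM for Alox5ap. The list was not limited to genes in at least 1% of monocytes, as the 8112 genes were. Nor was it matched in level to the NF-kB-induced list, so the part of level in this contrast was not tested. Of 16 genes, 2 were higher and 2 were lower in 4 of 4 libraries, and the median difference was -0.0741 points. Alox5ap, the activator of 5-lipoxygenase, was in 91.1% of Cxcl2-positive and 88.7% of Cxcl2-negative monocytes. Ptger4, a prostaglandin E2 receptor gene, was in 11.2% and 9.42%. Ptges3 was in 26.1% and 26.9%, and Tbxas1, the thromboxane synthase gene, in 6.72% and 7.37%. With Ptgs2 in place of Cxcl2 as the dividing gene, 19 of 20 NF-kB-induced genes, 8 of 12 immediate early genes, 7 of 9 hypoxia genes and 2 of 16 prostanoid genes were higher in 4 of 4 libraries, against 8.44% of all genes.

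**Figure D3:**
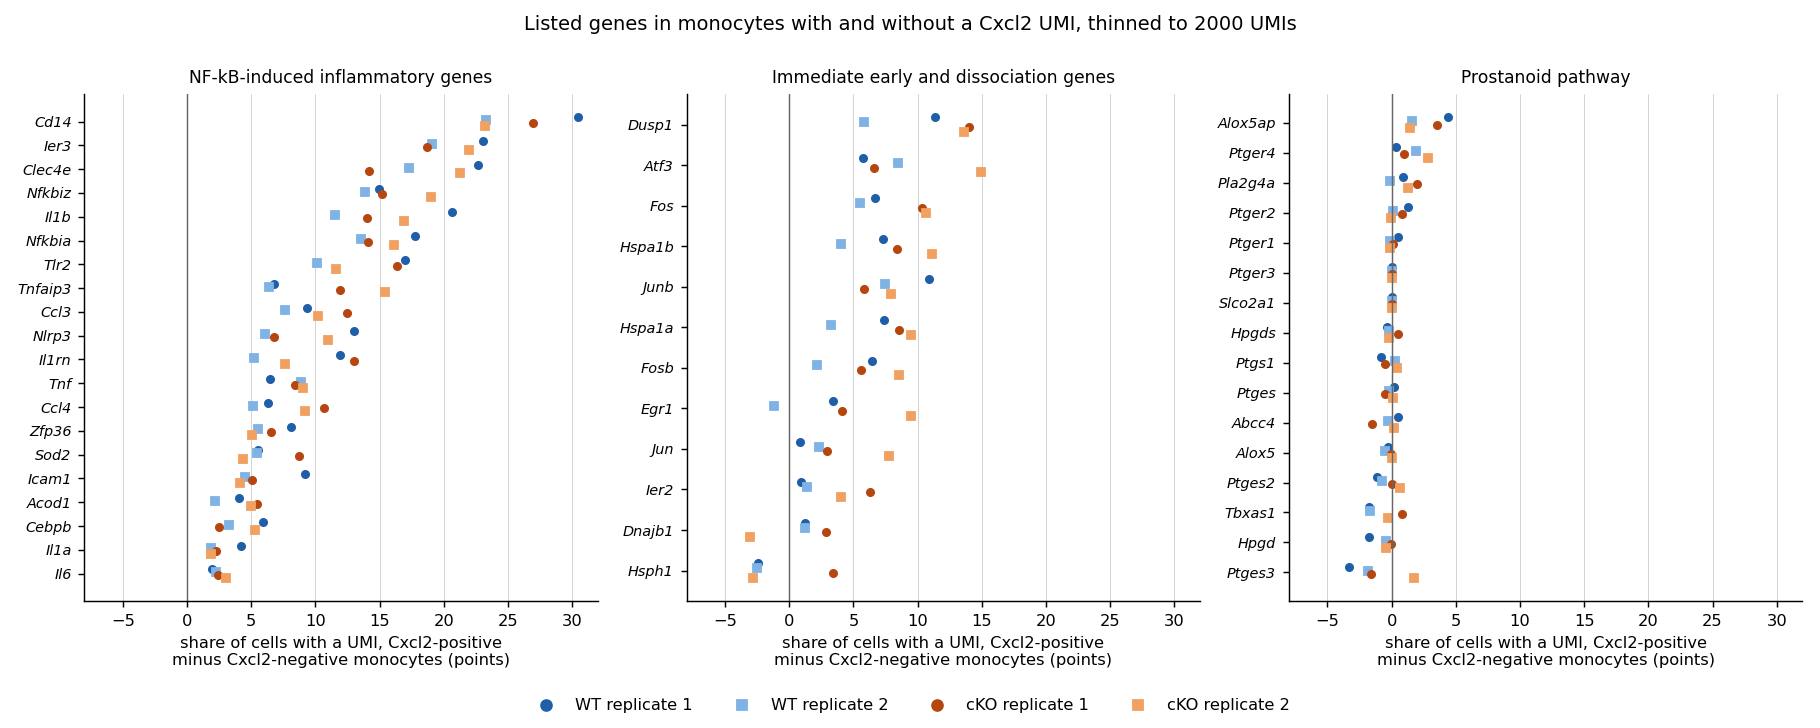
Difference in the percent of cells with a UMI between Cxcl2-positive and Cxcl2-negative monocytes (thinned to 2000 UMIs), for each gene of 3 lists, 1 point a library. All 20 NF-kB-induced genes lie above 0 in the 4 libraries, with Cd14 at 25.6 points over the pooled cells.

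Other genes of the neutrophil axis were low in these CD45+ cells. Csf3r, the G-CSF receptor gene, averaged 20.5 CPM over all cells and 882 CPM in neutrophils, where it was a gate marker. Csf2, which encodes GM-CSF, averaged 2.59 CPM, with 68.1 CPM in mast cells and basophils and 13.0 CPM in T cells. Ppbp, another CXCR2 ligand gene, averaged 0.645 CPM, and Csf3, the gene of G-CSF, 0.587 CPM. Cxcl5, a ligand made by epithelium and stroma in many tissues, averaged 0.00359 CPM, and Cxcl15 had no UMI.

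For each member, the 5 genes most like it were taken by Pearson correlation of log2(CPM + 1) over the means of 11 gates with at least 20 cells in every library, among 9685 genes. The points share libraries, and no p is given. Cxcl2 was most like Cstb (r = 0.980), Rai14 (0.975), Rhov (0.970), Cfb (0.967) and Ms4a6d (0.964). Ptgs2 was most like Il13ra1, Stom and Znfx1 (each 0.959), Fam71a (0.956) and Ier3 (0.955). Cxcl3 was most like Hk3 (0.919), S100a9 (0.918), Nt5dc2 and S100a8 (both 0.908) and Clec4d (0.904). Cxcl1 was most like Dstn (0.967), Rit1 (0.937), Selenom (0.932), Rapgef2 (0.913) and Rap2b (0.908). Among these 11 gates the mean of Cxcl1 was highest in migratory dendritic cells, at 146 CPM in WT library 1 against at most 3.89 CPM in the others, and 4 of the 5 genes also had their highest mean there. The list was not recomputed without that library. Cxcr2, which did not reach 10 CPM in these gates because neutrophils and the gate of mast cells and basophils had too few cells, was most like Tirap (0.971), Fam49b (0.956), Pnp (0.941), Dna2 (0.936) and Ifit2 (0.931).

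The genotypes were compared on UMIs summed per library, 2 cKO against 2 WT libraries, with edgeR's quasi-likelihood test and Benjamini-Hochberg adjustment over all genes tested. Nothing in the labels says whether the 2 libraries of a genotype came from separate animals, so p-values measure the spread between these libraries. Xist and Ddx3y place the 2 cKO libraries in animals of different sex, and do not settle this for the WT libraries. Fold changes are log2 of cKO over WT, ± SE.

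Over all cells no member differed between genotypes past the threshold of 0.05. Cxcl2 was at 1021 and 547 CPM in WT and 693 and 918 CPM in cKO libraries, and its fold change was 0.031 ± 0.29 (95% interval -0.70 to 0.76). Ptgs2 was at 112 and 62.0 CPM against 68.9 and 86.5 CPM, a fold change of -0.17 ± 0.26. Both cKO values of these genes lay between the WT values. Cxcl1 had a fold change of -1.51 ± 0.62, which became -0.24 without WT library 1, and Cxcl3 -1.26 ± 1.05, which became 1.60 without it. Cxcr2 was at 1.34 and 1.08 CPM against 1.40 and 1.35 CPM and its groups did not overlap, as was so with a higher cKO level for 14% of the 14132 genes tested. Of all genes 0 were called, with 337 at an unadjusted p under 0.05 and 19 calls by DESeq2. In such sums, fewer cells of a type and less RNA per cell cannot be told apart. With the 13 gates and the ungated cells held at their mean makeup, Cxcl2 was at 1131, 513, 726 and 847 CPM, with cKO values again between the WT values.

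In monocytes, the main source, the fold change of Cxcl2 was -0.0092 ± 0.34 (95% interval -0.81 to 0.79) and that of Ptgs2 -0.26 ± 0.32 (-1.01 to 0.50). Both cKO libraries lay between the WT libraries for each gene, so a change smaller than these intervals was not detectable. Cxcl1 had a fold change of -1.09 ± 0.83, Cxcl3 of -2.07 ± 1.17 and Cxcr2 of 0.35 ± 0.48. The fold changes of Cxcl1, Cxcl3, Cxcl2 and Ptgs2 rested on WT library 1, without which they became 0.79, 1.77, 0.65 and 0.36. No gene of 11171 was called, with 529 at an unadjusted p under 0.05 and 9 calls by DESeq2.

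In macrophages Cxcl1 was at 75.8 and 15 CPM in WT and at 1.08 and 1.42 CPM in cKO libraries, from 282, 153, 8 and 5 UMIs respectively. The groups did not overlap, as was so with a lower cKO level for 14.4% of the 10212 genes tested. The share of macrophages with a Cxcl1 UMI was 2.05% (exact binomial 95% interval 1.13 to 3.42) and 1.25% (0.792 to 1.87) in the WT libraries. In the cKO libraries it was 0.286% (0.0780 to 0.730) and 0.300% (0.0363 to 1.08). These intervals cover counting error only. After thinning to 2000 UMIs the shares were 1.03%, 0.93%, 0% and 0%.

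The fold change of Cxcl1 in macrophages was -5.08 ± 0.88 (95% interval -7.07 to -3.10) with an unadjusted p of 0.00025, and it did not pass adjustment over all genes (edgeR, Benjamini-Hochberg adjusted p = 0.9999). DESeq2 gave -5.16 with an adjusted p of 0.0774. Few cells carried the difference: the positive cells numbered 14, 23, 4 and 2, and without the highest cell of each library the levels were 28.8, 12.2, 0.675 and 0.286 CPM. Without WT library 1 the fold change was -3.62, and without the sex-divergent cKO library 2 it was -5.22. With suspected doublets kept the fold change was -2.98 (edgeR adjusted p = 0.9996). Suspected doublets were 3.80% and 3.18% of cells in WT and 5.83% and 6.36% in cKO libraries, and the part of this imbalance was not tested. The direction of Cxcl1 held in these fits. It passed the threshold with same-numbered libraries as a block (-5.36, edgeR adjusted p = 5.90e-05) and not in the main fit.

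Ptgs2 in macrophages was at 66.6 and 35.5 CPM against 24.1 and 30.4 CPM, without overlap, a fold change of -0.86 ± 0.26 (95% interval -1.45 to -0.26) with an unadjusted p of 0.0098 and an edgeR adjusted p of 0.9999. It was -0.40 without WT library 1, and -1.27 without WT library 2. Cxcl2 had a fold change of -0.32 ± 0.28 (-0.95 to 0.30), which became 0.24 without WT library 1 and -0.73 without WT library 2. Cxcl3 was at 2.20 ± 0.82 and rested on the 1 cell of cKO library 2 named above. Without that library it was 0.27, and without cKO library 1 it was 3.17. Of all genes in macrophages 0 were called, with 299 at an unadjusted p under 0.05 and 0 calls by DESeq2.

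The NF-kB-induced list in macrophages had 14 of its 19 tested genes lower and 5 higher in cKO, with a median fold change of -0.25, against a median near 0 and 50.1% lower over all genes. None was called. Il1b, the gene of interleukin-1 beta, was at -0.57 ± 0.14, Cebpb at -0.37 ± 0.11, Zfp36 at -0.36 and Ccl4 at -0.25. Of the 19 genes, 8 did not overlap in the lower direction and 3 in the higher, where the background is 14.4% each way. In monocytes the same list had 10 genes higher and 10 lower, with a median of 0.0043. The immediate early list was lower in macrophages for 9 of 12 genes (median -0.14) and higher in monocytes for 10 of 12 (median 0.16). The summed level of that list in macrophages was 11823 and 9277 CPM in WT and 8921 and 10388 CPM in cKO, and its part in the Cxcl1 and Ptgs2 differences was not tested. The prostanoid list had 8 of 11 tested genes lower in macrophages (median -0.15) and the hypoxia list 8 of 9 higher (median 0.13), none of them called.

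Markers of other cell types in the macrophage gate moved as well. The summed level of 7 cDC2 markers, none at 0, was 192 CPM in WT library 1 and 81.5, 75.5 and 71.7 CPM in the other libraries. The 10 neutrophil markers summed to 141, 61.9, 77.3 and 251 CPM, and the 7 monocyte markers to 469, 347, 312 and 425 CPM. The macrophage panel was 14066 CPM in WT library 1 and 15716 to 16462 CPM in the others. WT library 1, which had the highest Cxcl1, thus also had the most cDC2 marker RNA in this gate, and the part of such cells was not tested. Cxcl1 in the cDC2 gate itself was 0.129, 0.951, 3.75 and 0 CPM.

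In cDC2, Cxcl2 had a fold change of -0.045 ± 0.24 and Ptgs2 of -0.0051 ± 0.25, and the genotypes overlapped for each gene. No gene of 9913 was called, with 372 at an unadjusted p under 0.05 and 2 calls by DESeq2. In intermediates, a gate added to the genotype fits after the data were seen, Cxcl1 had a fold change of -1.32 ± 0.52 (edgeR adjusted p = 0.710), which became -0.039 without WT library 1. Cxcl2 was at 0.0032 ± 0.29, Cxcl3 at 0.16 ± 0.55 and Ptgs2 at -0.078 ± 0.23. The 2 genes called there, 0.0186% of 10763, were the interferon-induced GTPase genes Iigp1 (1.76 ± 0.16, edgeR adjusted p = 0.0201) and Tgtp1 (1.55 ± 0.16, 0.0285), and neither is a member.

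**Figure D4:**
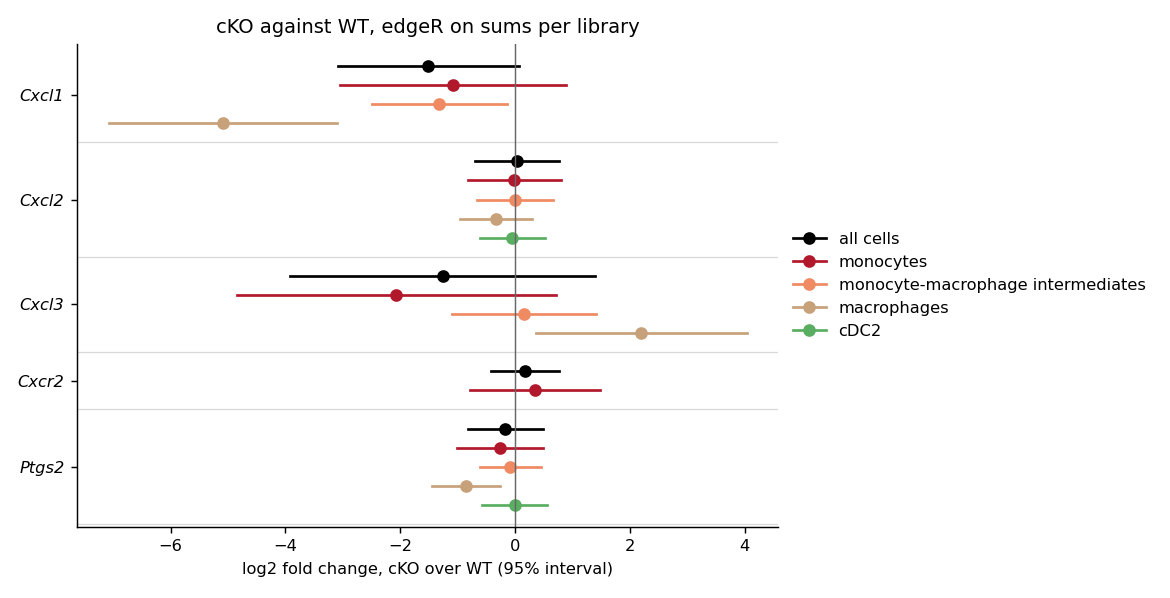
Log2 fold change of cKO over WT (edgeR, 95% interval) for each member in each class of cells. The intervals of Cxcl2 include 0 in all 5 classes, and Cxcl1 in macrophages stands at -5.08 (-7.07 to -3.10).

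The difference between gates was tested directly, as the cKO effect in macrophages minus that in monocytes, with library as a block in edgeR. For Cxcl1 it was -4.39 ± 0.38 on the log2 scale (Benjamini-Hochberg adjusted p = 6.21e-05), the lower of the 2 effects being that in macrophages. It was 1 of 2 genes called among 11543 (0.0173%), with 473 at an unadjusted p under 0.05. The other was Cd209a, a dendritic cell lectin gene of the cDC2 panel, at -4.17 ± 0.55 (edgeR adjusted p = 0.00786). DESeq2 also made 2 calls, with Cxcl1 at -4.28. With suspected doublets kept, the Cxcl1 difference was -2.19 and did not pass (edgeR adjusted p = 0.0644). Without the sex-divergent cKO library 2 it was -4.91. The differences of Cxcl2 (-0.37 ± 0.15), Cxcl3 (3.19 ± 1.00), Cxcr2 (-0.82 ± 1.74) and Ptgs2 (-0.69 ± 0.18) did not pass in the main fit. Leaving out a library leaves 1 in its genotype, so only effects are given for such fits. The difference of Ptgs2 was -0.79 without WT library 1. That of Cxcl3 was 4.68 without WT library 2 and 4.74 without cKO library 1, but 0.56 without WT library 1 and 1.03 without cKO library 2. For Cxcl3, 1 cell held 69 of the 70 UMIs of macrophages in cKO library 2. In monocytes of WT library 1, 1 cell held 276 of the 898 Cxcl3 UMIs.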

How the data were processed

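The values used are raw UMI counts in the deposited matrices, made by the authors with Cell Ranger 6.1.1, per the file headers. CASAVA 1.8 and Seurat are named in the submitters' processing notes. Build and annotation are not given in the sources used here. Of 32801 barcodes, 32396 had 300 or more genes and no more than 15% of UMIs from mitochondrial genes, and were kept. Gates required 3 to 5 genes of 1 of 12 marker panels, and their minimums were set after marker distributions were seen. The 1536 cells with conflicting lineages (median 15977 UMIs) were removed as suspected doublets, and 2877 stayed ungated. The removed cells were 3.80% and 3.18% of kept cells in WT and 5.83% and 6.36% in cKO libraries. The members and lists were chosen with earlier results of these data known. Counts were summed per library and gate and tested with edgeR 4.0.16 (TMM, filterByExpr, quasi-likelihood, Benjamini-Hochberg, threshold 0.05) in R 4.3.3, with DESeq2 1.42.0 as an alternative, after a test on simulated data. Only the 4 libraries of a comparison entered it. Levels have 95% exact Poisson intervals, which with binomial intervals and the floor of 3 counts per library cover counting error only. Shares used cells thinned to 2000 UMIs, leaving out shallower cells. Named beside the members are up to 4 genes of each list by mean CPM, called genes and the 5 genes most like each member. Alternatives were normalization, filters, gates, doublets, shared barcodes, a replicate block and leaving out each library. Sequences are from RefSeq (GRCm38.p6), which matched 5 of 5 members.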

Additional observations from a re-analysis of the deposited data

Results flagged for a closer look

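The cKO effect on Cxcl1 differed between gates by the test of the difference itself: the effect in macrophages minus that in monocytes was -4.39 on the log2 scale, with edgeR and library as a block. Cxcl1 was lower in both cKO libraries than in both WT libraries in macrophages, and in monocytes the groups overlapped. Only 43 macrophages had a Cxcl1 UMI.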

How the results depend on the processing

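Calls were few and moved with the processing, and the cause was not tested. For all cells, monocytes, macrophages, cDC2 and intermediates (0, 0, 0, 0 and 2 called), no filter on low counts gave 1, 162, 57, 65 and 236 calls. DESeq2 gave 19 in all cells, 9 in monocytes, 2 in cDC2 and 17 in intermediates. Library totals without TMM gave 1 in monocytes and 5 in intermediates, and doublets kept gave 0 in intermediates. Leaving out each library gave 0 to 50, 0 to 12, 1 to 134, 0 to 76 and 0 to 113 calls. Each such fit leaves a genotype with 1 library, which is assumed to vary like the others. The difference between gates (2 calls) became 1 without TMM, 35 with no filter, 1 with stricter gates, 5 with a cell minimum of 500 genes and 10% as the mitochondrial maximum, and 2 to 113 on leaving out a library.

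The replicate numbers are not tied to animals or batches by the labels. With 2 pairs, deviations of same-numbered libraries correlated at 0.158 over all cells, 0.346 in monocytes and 0.0973 in macrophages, and 2 pairs do not settle whether they share a batch. The replicate block gave 1, 131, 8, 1 and 65 calls. With it Cxcl1 was called in monocytes (-0.83, edgeR adjusted p = 0.0478) and macrophages (-5.36, edgeR adjusted p = 5.90e-05). It turned the fold change of Cxcl2 to 0.10 in monocytes and to 0.024 in cDC2.

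Member fold changes kept direction and side of the threshold in 192 refits, reversed in 29 and became calls in 14. Reversals outside the block and the left-out libraries were Cxcl3 in macrophages (-0.23, stricter gate), Cxcl2 in cDC2 (0.14, stricter gate; 0.054, no shared barcodes), Ptgs2 in cDC2 (0.039, no TMM; 0.15, stricter gate; 0.061, no shared barcodes) and Cxcl2 in intermediates (-0.0081, no TMM; -0.12, doublets kept). Leaving out each library gave ranges that crossed 0: in all cells, Cxcl2 -0.31 to 0.47, Cxcl3 -2.16 to 1.60, Ptgs2 -0.49 to 0.24. In monocytes, Cxcl1 -2.05 to 0.79, Cxcl2 -0.47 to 0.65, Cxcl3 -3.03 to 1.77, Cxcr2 -0.18 to 1.05, Ptgs2 -0.70 to 0.36. In macrophages, Cxcl2 -0.73 to 0.24. In cDC2, Cxcl2 -0.43 to 0.48, Ptgs2 -0.55 to 0.38. In intermediates, Cxcl2 -0.40 to 0.56, Cxcl3 -0.59 to 1.62, Ptgs2 -0.42 to 0.37. In the difference between gates, Cxcr2 -5.09 to 3.22. Levels by gate moved by less than 1 SD in 259 recomputations and by more in 1 (Cxcl2 in cDC1, stricter gate). Depth limits Cxcl1, Cxcl3 and Cxcr2, which rest on under 300 cells each.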
